A study of Homo sapiens with 12 samples.

Results

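The subunits of respiratory chain complexes I to IV encoded in the nucleus were followed in A549, a line from a human lung adenocarcinoma, after depletion of FAM60A or SDS3. Members were the genes whose symbol starts with NDUFA, NDUFB, NDUFC, NDUFS or NDUFV and ends in a number, SDHA to SDHD, every symbol starting with UQCR, and the COX genes of the lettered series from COX4 to COX8. The array annotation held 62 such symbols, of which 57 had a probe set of their own among 19775 genes and 56 passed the level filter among 18621 genes tested. The tested members comprised 32 of complex I, 3 of complex II, 6 of complex III and 15 of complex IV. COX8C lay below the filter (at least 3 of 12 arrays at log2 5), between 3.44 and 4.52 on all arrays. NDUFC2, NDUFS5, NDUFS8, UQCRH and UQCRHL were found only on probe sets annotated to several genes and have no value here.

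Complex I takes electrons from NADH, complex II takes them from succinate, complex III passes them from quinol to cytochrome c, and complex IV hands them to oxygen. Complexes I, III and IV pump protons as they do so, and ATP synthase uses the gradient to make ATP. The catalytic core of complex I is made partly in the nucleus and partly from mitochondrial DNA, and it is surrounded by accessory subunits that assemble and stabilise it. FAM60A, now named SINHCAF, and SDS3, now named SUDS3, are subunits of the SIN3-HDAC co-repressor, which brings histone deacetylases to chromatin. Transcription factors known to act on many respiratory subunit genes include NRF1, the ETS factor GABPA and YY1.

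The study had 4 groups of 3 arrays: FAM60A siRNA, its own non-targeting siRNA controls, the group labelled SDS3 knockdown, and that group's own non-targeting controls. All cells were A549 carrying no other labelled modification, transfected with 50 nM siRNA and collected 3 days later, and no control array served both experiments. The treatment text in the labels names the FAM60A and non-targeting siRNAs alone, 1 siRNA each, and cultures were plated in triplicate without naming independent experiments, so the p-values cover the spread of these samples alone, and that spread may be technical. Values are log2 of the deposited signal, changes are knockdown minus control, and "passed" means a Benjamini-Hochberg adjusted p under 0.05 in limma over all tested genes. Each knockdown left 15.5% of SINHCAF or 33.4% of SUDS3 signal. Array medians were 186 to 192.6 in the FAM60A experiment and 96.8 to 98.3 on the SDS3 arrays, and levels of the experiments were kept apart. Keratins KRT8, KRT18 and KRT7 and the A549 markers ALDH1A1, AKR1B10 and AKR1C1 were at 13.8 or more on every array, while the epithelial adhesion genes EPCAM (8.70 to 10.05) and CDH1 (6.91 to 10.67) were lower. The 10 markers of other cells with a probe set lay between 4.16 and 8.79, with the leukocyte marker PTPRC the lowest (4.16 to 5.08), and CD14 (7.07 to 8.67), PECAM1 (7.43 to 8.69) and SFTPC (7.61 to 8.79) the highest. Spike-in transcripts averaged 0.32 higher in the SDS3 knockdown than in its controls (exact permutation p = 0.1, the smallest that 3 against 3 arrays allow) and 0.10 higher in the FAM60A knockdown (exact p = 0.5). Probe sets of 18S ribosomal RNA averaged 0.53 higher in the SDS3 knockdown and 0.28 higher in the FAM60A knockdown than in their controls (exact permutation p = 0.1 each), and their part in the results was not tested. Fewer cells and less RNA per cell cannot be told apart in such bulk samples.

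Promoter windows from RefSeq (GRCh38.p14, 250 bases before to 50 after a start, over all windows of a gene) were found for 49 of the 56 tested members, and 7 members, SDHC, UQCRB, COX7A1, COX6C, COX6A1P1, NDUFB5 and NDUFB9, had none in the table. A core of 7 letters was searched for each of the 3 factors on both strands: GCATGCG for NRF1, CCGGAAG for GABPA and AAGATGG for YY1, none of which overlaps another in the stretches shown. The NRF1 core was in 9 members (18.4%) and in 4.74% of 27305 genes, the GABPA core in 12 members (24.5%) and in 12.2% of genes, and the YY1 core in 12 members (24.5%) and in 7.11% of genes. At least 1 of the cores was in 27 of 49 members (55.1%), against 21.5% of all genes. Shown here are the 160 bases before the start, 5′ to 3′ on the gene's strand, of 3 subunits: the one with the largest change in both knockdowns (NDUFA5, chr7:123557819-123557978, minus strand, the most downstream of its 3 windows), the one with the largest fall after FAM60A knockdown (SDHD, chr11:112086713-112086872, plus strand) and the one with the largest fall after SDS3 knockdown (NDUFV2, chr18:9102539-9102698, plus strand). Capitals mark the cores.
NDUFA5: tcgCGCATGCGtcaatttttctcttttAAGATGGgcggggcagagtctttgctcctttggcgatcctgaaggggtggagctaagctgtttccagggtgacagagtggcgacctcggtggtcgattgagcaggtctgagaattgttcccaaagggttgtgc
SDHD: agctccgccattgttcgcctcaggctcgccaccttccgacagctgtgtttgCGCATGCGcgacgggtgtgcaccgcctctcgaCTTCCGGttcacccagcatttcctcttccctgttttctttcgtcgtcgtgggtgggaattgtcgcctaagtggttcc
NDUFV2: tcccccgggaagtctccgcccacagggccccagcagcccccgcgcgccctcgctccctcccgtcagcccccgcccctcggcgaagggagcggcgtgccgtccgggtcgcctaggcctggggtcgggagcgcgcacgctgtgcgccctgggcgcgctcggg
The NDUFA5 stretch held the NRF1 core on both strands, overlapping, beginning 157 bases before the start, and the YY1 core beginning 133 bases before it. The SDHD stretch held the NRF1 core on both strands beginning 109 bases before the start and the GABPA core on the reverse strand beginning 77 bases before it. The NDUFV2 stretch held none of the 3, so the subunits that rose or fell most did not have these letters in common. Of the 20 members with a window that passed in at least 1 knockdown, 3 held the NRF1 core, 4 the GABPA core and 7 the YY1 core. Of the 29 that passed in neither, 6, 8 and 5 did. A match is a description of letters and not a site of binding.

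Of the 56 tested subunits of the respiratory chain 34 passed in neither knockdown, and NDUFA5 had the largest change in both. The share of all genes passing in neither was not computed, so that count is not a result about the members. In the FAM60A knockdown 12 of 56 members passed (21.4%), 4 higher and 8 lower, where 36.8% of all tested genes passed. After SDS3 knockdown 15 of 56 passed (26.8%), 2 higher and 13 lower, where 34.6% of all genes did. Leaving out 1 array took the 15 to between 8 and 11, with 8 without SDS3 knockdown replicate 2 and 9 without SDS3 knockdown replicate 1 or SDS3 control replicate 2. The share of all genes passing in these smaller fits is not given here. A loss particular to the members can therefore not be read from these counts. A limma fit with a variance trend and robust settings gave 20 members in the FAM60A knockdown, where 38.7% of all genes passed, and 27 in the SDS3 knockdown, where 37.7% did. By direction the background was 19.2% of genes higher and 17.6% lower in the FAM60A knockdown, and 15.8% higher and 18.8% lower in the SDS3 knockdown. The 13 falls among 56 members in the SDS3 knockdown therefore lay near the share of all genes, and the rises lay below it. Members are bright on this array, and among the 5038 genes at a mean of log2 10 or more 54.8% passed in the FAM60A knockdown and 51.3% in the SDS3 knockdown, against 11 and 15 of the 51 members of that level. The 3 knockdown arrays lay entirely on one side of the 3 controls for 24 members in the FAM60A experiment and for 37 in the SDS3 experiment, where 48.1% and 47.6% of all genes did so. At log2 10 or more this held for 23 of 51 members and 68.8% of genes in the FAM60A experiment, and for 35 of 51 members and 69.5% of genes in the SDS3 experiment. The median change was -0.008 over the members and -0.023 over all genes in the FAM60A knockdown, and -0.079 over the members and 0.006 over all genes in the SDS3 knockdown. At log2 10 or more the SDS3 median was -0.084 over the members and -0.043 over all genes.

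**Figure D1:**
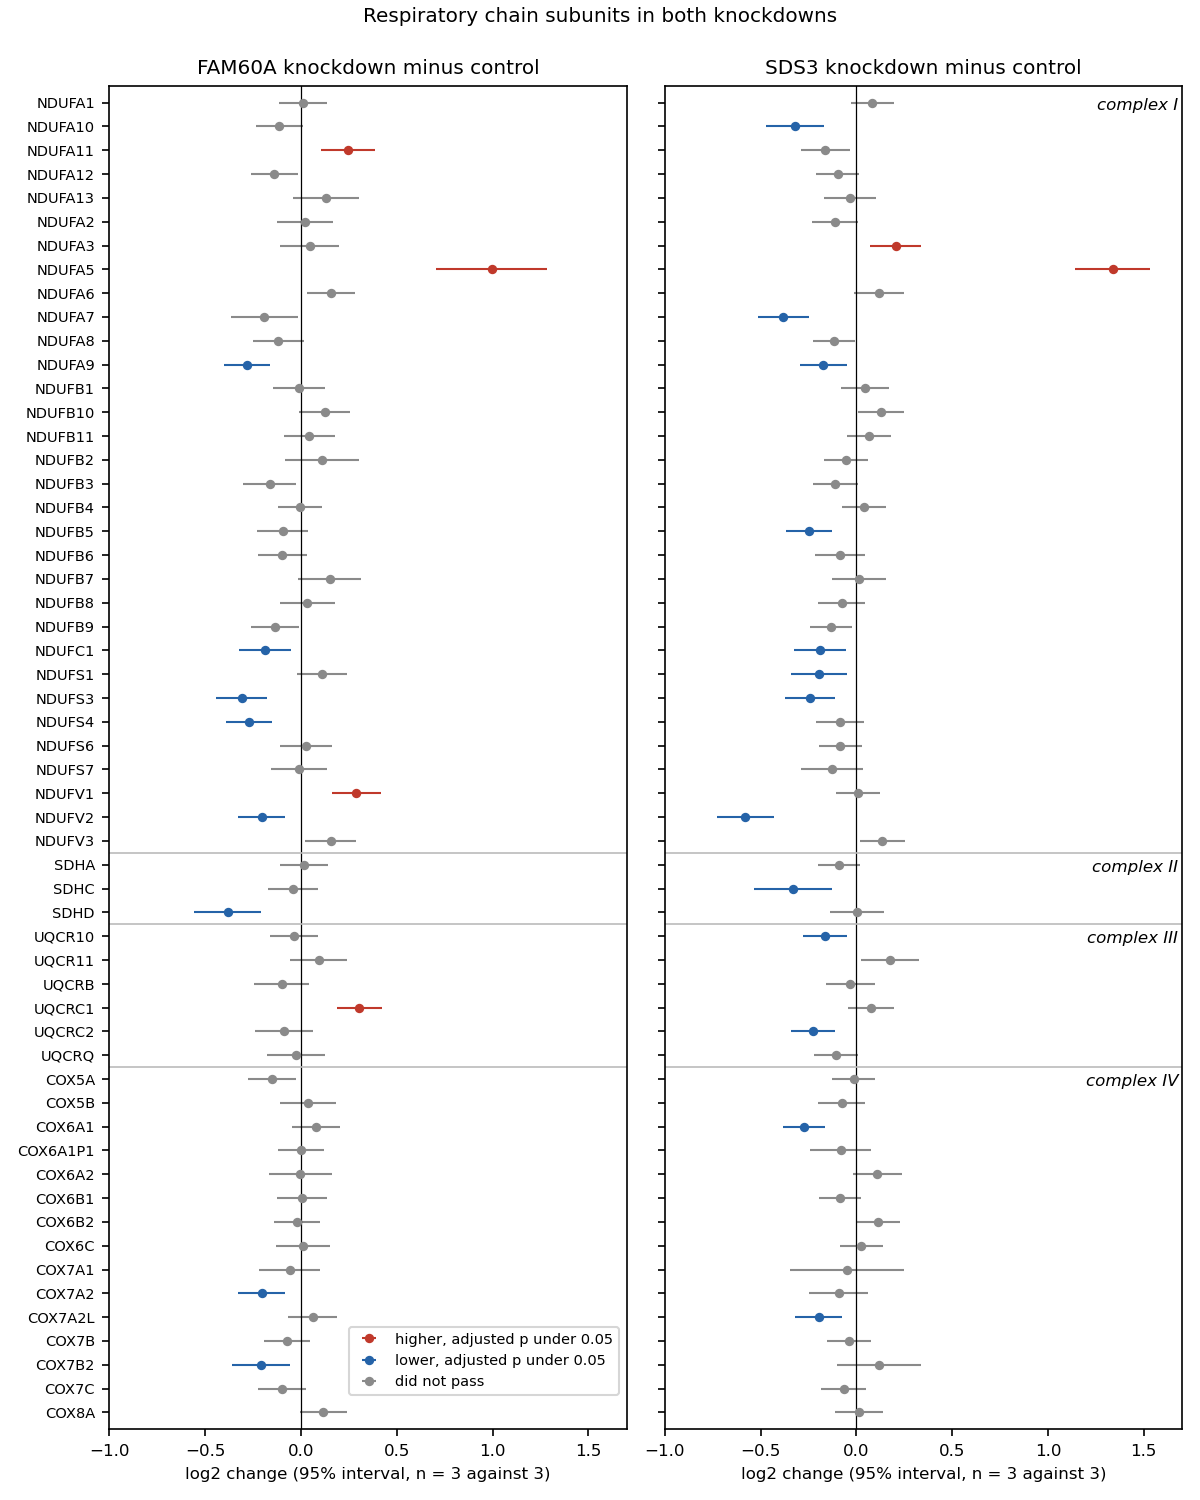
Log2 change of each tested subunit (knockdown minus control, x axis) with its 95% interval from limma, for the FAM60A knockdown (left panel) and the SDS3 knockdown (right panel), grouped by complex. Red points passed as higher and blue points as lower at an adjusted p under 0.05; NDUFA5 stands at 1.00 and 1.34, and every other point lies between -0.58 and 0.30.

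The subunits that did not pass were bounded closely by their brightest probe sets, though not by all their dimmer ones. COX7B had 0.76 in the FAM60A knockdown and 0.66 in the SDS3 knockdown from a dim probe set, and UQCRB 0.53 in the SDS3 knockdown. In the FAM60A knockdown dimmer probe sets gave 0.47 for NDUFB2, 0.41 for NDUFA10 and -0.42 for SDHC. The intervals that follow are those of the brightest probe sets alone. The 95% interval stayed inside a 1.5-fold change for 44 of 44 such members in the FAM60A knockdown and for 41 of 41 in the SDS3 knockdown, and the outermost limits were -0.37 and 0.31 in the FAM60A experiment and -0.35 and 0.34 in the SDS3 experiment. Scaling the arrays to the spike-in transcripts moved the median of all genes to -0.12 in the FAM60A knockdown and -0.32 in the SDS3 knockdown. With it 5 members passed in the FAM60A knockdown, 1 higher and 4 lower, and 38 in the SDS3 knockdown, 1 higher and 37 lower. All genes then passed as higher in 7.23% and as lower in 12.1% in the FAM60A knockdown, and in 2.66% and 49.0% in the SDS3 knockdown. With scaling to the hybridisation controls, chosen after seeing the data, 6 passed in the FAM60A knockdown, 4 higher and 2 lower, and 16 in the SDS3 knockdown, 1 higher and 15 lower. The shares of all genes were 19.0% higher and 9.20% lower in the FAM60A knockdown, and 9.01% higher and 23.4% lower in the SDS3 knockdown. The balance of higher and lower subunits thus depended on the scaling.

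NDUFA5, an accessory subunit of the peripheral arm of complex I, rose in both knockdowns. Its signal was 11.40, 11.18 and 10.88 in the FAM60A knockdown, against 10.29, 9.90 and 10.28 in its controls. Its signal was 11.04, 10.90 and 10.71 in the SDS3 knockdown, against 9.49, 9.64 and 9.50 in its controls. All knockdown arrays lay above all controls of their experiment. The log2 change was 1.00 (SE 0.13, n = 3 against 3, limma adjusted p = 0.000146) in the FAM60A knockdown and 1.34 (SE 0.086, limma adjusted p = 1.0e-05) in the SDS3 knockdown, or 199% and 253% of the control signal. Among all tested genes it ranked 241 of 18621 by rise in the FAM60A knockdown and 73 in the SDS3 knockdown. The difference between both changes was 0.34 and did not pass (limma adjusted p = 0.19). Its probe set is not of the shared-sequence class, and a further probe set of NDUFA5 averaged 3.71 and lay below the filter. The mean of both probe sets gave smaller rises that still passed, 0.33 in the FAM60A knockdown and 0.73 in the SDS3 knockdown. Of its nearest tested neighbours on chromosome 7, looked up after the change of NDUFA5 was seen, ASB15 had -0.11, LMOD2 -0.17 and TAS2R16 -0.16 in the FAM60A knockdown, and ASB15 had -0.004, LMOD2 0.039 and TAS2R16 0.14 in the SDS3 knockdown, none of which passed. WASL, a regulator of actin assembly, rose by 0.29 in the FAM60A knockdown (limma adjusted p = 0.00239) and had -0.13 in the SDS3 knockdown (limma adjusted p = 0.33).

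**Figure D2:**
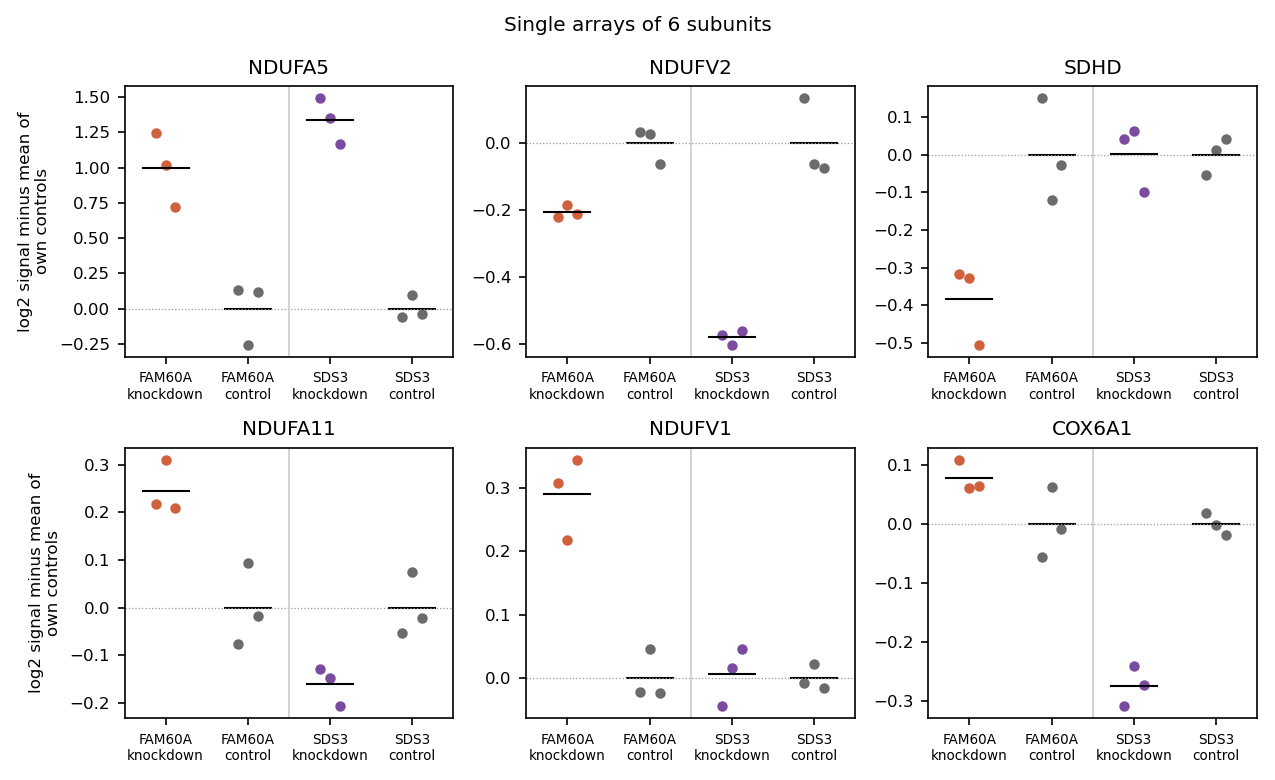
Single arrays of 6 subunits as log2 signal minus the mean of their own controls (y axis, scaled for each panel); points are the 3 arrays of a group and black lines are group means. All arrays of both knockdowns lie above their controls for NDUFA5 and below them for NDUFV2, while SDHD lies below its controls in the FAM60A knockdown and overlaps them in the SDS3 knockdown.

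The core subunits of complex I that carry flavin or iron-sulfur clusters, or line the quinone path, changed in part, and not in one direction. Of the 5 tested, 3 passed in each knockdown: NDUFV1 higher and NDUFS3 and NDUFV2 lower after FAM60A knockdown, and NDUFV2, NDUFS3 and NDUFS1 lower after SDS3 knockdown. The NDUFS1 fall of 0.20 (limma adjusted p = 0.043) was read from a shared-sequence probe set, a class whose probes can bind more than one transcript, and with such probe sets left out NDUFS1 had -0.012 in the SDS3 knockdown (limma adjusted p = 0.89). NDUFV2, which holds an iron-sulfur cluster of the NADH-oxidising module, had 12.68, 12.72 and 12.69 in the FAM60A knockdown, against 12.94, 12.93 and 12.84 in its controls. It had 11.79, 11.76 and 11.80 in the SDS3 knockdown, against 12.49, 12.30 and 12.28 in its controls. The groups did not overlap in either experiment. It fell by 0.58 in the SDS3 knockdown (SE 0.066, n = 3 against 3, limma adjusted p = 0.000211), the largest fall of any member, and by 0.21 in the FAM60A knockdown (SE 0.055, limma adjusted p = 0.0131). Without FAM60A control replicate 1 its FAM60A value was -0.19 and did not pass (limma adjusted p = 0.055).

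NDUFV1, the flavin-carrying subunit that receives electrons from NADH and is the partner of NDUFV2, had 12.326, 12.236 and 12.362 in the FAM60A knockdown, against 11.997, 12.064 and 11.996 in its controls. It rose there by 0.29 (SE 0.058, n = 3 against 3, limma adjusted p = 0.00239). In the SDS3 knockdown its groups overlapped and its change was 0.007 (95% interval within 1.5-fold; limma adjusted p = 0.94). The 2 proteins of one module thus had transcripts that passed in opposite directions in the FAM60A knockdown. There the NDUFV1 rise did not pass in 2 of 17 alternatives, and the NDUFV2 fall did not in 3 of 17. A dimmer probe set of NDUFV1, at 8.17, had -0.0002 in the FAM60A knockdown. NDUFS3, a core subunit of complex I, had 11.56, 11.48 and 11.51 in the FAM60A knockdown, against 11.83, 11.90 and 11.75 in its controls, a fall of 0.31 (limma adjusted p = 0.00198). It had 11.51, 11.46 and 11.47 in the SDS3 knockdown, against 11.79, 11.75 and 11.63 in its controls, a fall of 0.24 (limma adjusted p = 0.0111). NDUFS7, which binds the terminal iron-sulfur cluster, had -0.011 in the FAM60A knockdown and -0.13 in the SDS3 knockdown and passed in neither.

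Among the 27 accessory subunits of complex I, 5 passed in the FAM60A knockdown and 7 in the SDS3 knockdown. Beside NDUFA5, NDUFA11 rose by 0.25 in the FAM60A knockdown (limma adjusted p = 0.0102). NDUFA11 is a membrane-arm subunit. Its arrays read 12.18, 12.27 and 12.17 in the FAM60A knockdown, against 11.89, 12.06 and 11.95 in its controls. The falls in that knockdown were NDUFA9 (-0.28, limma adjusted p = 0.00176), a subunit near the quinone site, NDUFS4 (-0.27, limma adjusted p = 0.0023), which helps attach the NADH-oxidising module, and NDUFC1 (-0.19, limma adjusted p = 0.0348). NDUFC1 did not pass when any of 5 of the 6 arrays was left out, with values from -0.14 to -0.19. By their brightest probe sets the 11 NDUFB subunits of the membrane arm held 0 calls in the FAM60A knockdown, where 36.8% of all genes passed. Of the 11, 2 were at an unadjusted p under 0.05 and 3 had arrays that did not overlap, as 48.1% of all genes did. Their changes ran from -0.16 to 0.15. A dimmer probe set of NDUFB2, at 7.03, rose by 0.47 there (limma adjusted p = 0.000517 over all probe sets). Another of NDUFB2, at 11.8, had 0.067 and did not pass.

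The largest falls after SDS3 knockdown of accessory subunits were those of NDUFA7 and NDUFA10. NDUFA7 had 10.10, 10.07 and 10.20 in the SDS3 knockdown, against 10.49, 10.57 and 10.45 in its controls, and fell by 0.38 (SE 0.058, limma adjusted p = 0.00108). NDUFA10, a membrane-arm subunit related to nucleoside kinases, had 10.89, 10.92 and 10.91 in the knockdown, against 11.11, 11.35 and 11.23 in its controls, and fell by 0.32 (SE 0.067, limma adjusted p = 0.0056). Both were entirely below their controls. After FAM60A knockdown NDUFA7 had -0.19 and NDUFA10 -0.11, and neither passed. A dim further probe set of NDUFA10, at 5.87, rose by 0.41 there (limma adjusted p = 0.00213 over all probe sets), and its other dim ones did not pass. NDUFB5 fell by 0.25 in the SDS3 knockdown (limma adjusted p = 0.00576). By brightest probe sets it was the single call among the 11 NDUFB subunits there, where 34.6% of all genes passed. NDUFC1 (-0.19) and NDUFA9 (-0.17) also fell. Dimmer probe sets of NDUFB8 (at 7.42) and NDUFB10 (at 11.6, of shared sequence) rose by 0.34 and 0.23 in the SDS3 knockdown (limma adjusted p = 0.00735 and 0.0237 over all probe sets). NDUFA3 rose by 0.21 (limma adjusted p = 0.0242) on the deposited scale, had -0.12 with spike-in scaling, and did not pass when any of 5 of the 6 arrays was left out, with values from 0.17 to 0.21.

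Complex II oxidises succinate in the TCA cycle as well as feeding the chain, and 1 of its 3 tested members passed in each knockdown, a different one each time. SDHD, one of the 2 membrane anchors, had 11.03, 11.02 and 10.84 in the FAM60A knockdown, against 11.49, 11.22 and 11.32 in its controls, with no overlap. It fell by 0.38 (SE 0.080, n = 3 against 3, limma adjusted p = 0.00308), which left 76.7% of the control signal. In the SDS3 knockdown it had 10.45, 10.47 and 10.31, against 10.35, 10.42 and 10.45 in its controls, overlapping groups with a change of 0.0025 (limma adjusted p = 0.98). SDHC, the other anchor, had 10.95, 10.93 and 10.94 in the SDS3 knockdown, against 11.07, 11.44 and 11.31 in its controls. It fell by 0.33 there (SE 0.089, limma adjusted p = 0.0191), and its change in the FAM60A knockdown was -0.043 (limma adjusted p = 0.62). The SDHC fall did not pass without SDS3 control replicate 2 (-0.25) or 3 (-0.31), or without SDS3 knockdown replicate 1 (-0.34) or 2 (-0.33). SDHA, the flavin-carrying catalytic subunit, had 0.015 in the FAM60A knockdown and -0.091 in the SDS3 knockdown and passed in neither.

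SDHC had 7 probe sets above the filter, and the call depended on which of them was read. Its brightest 2, of the shared-sequence class, passed in the SDS3 knockdown and not in the FAM60A knockdown, with -0.33 and -0.35 there and -0.043 and -0.072 in the FAM60A knockdown. The brightest without shared sequence had -0.12 in the SDS3 knockdown, which did not pass, and fell by 0.24 in the FAM60A knockdown (limma adjusted p = 0.0182). A dimmer one without shared sequence fell in both, by 0.38 in the SDS3 knockdown and 0.42 in the FAM60A knockdown. All 7 were below 0 in both knockdowns.

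Of the 6 complex III members 1 rose in the FAM60A knockdown and 2 fell in the SDS3 knockdown. UQCRC1, a core protein of the matrix side, had 13.53, 13.49 and 13.52 in the FAM60A knockdown, against 13.21, 13.23 and 13.18 in its controls, and rose by 0.30 (SE 0.053, n = 3 against 3, limma adjusted p = 0.000937). Its change in the SDS3 knockdown was 0.076 and did not pass (limma adjusted p = 0.31). UQCRC2, the other core protein, had 12.03, 12.12 and 12.04 in the SDS3 knockdown, against 12.28, 12.30 and 12.28 in its controls, and fell by 0.23 (limma adjusted p = 0.00849). It had -0.087 in the FAM60A knockdown (limma adjusted p = 0.36). The small subunit UQCR10 fell by 0.16 in the SDS3 knockdown (limma adjusted p = 0.0329), and UQCR11, UQCRB and UQCRQ passed in neither knockdown. The brightest probe sets of UQCR11 (0.091 in the FAM60A knockdown) and UQCRB (-0.10) are also shared-sequence ones. With these left out, UQCR11 fell by 0.23 (limma adjusted p = 0.0209) and UQCRB rose by 0.28 (limma adjusted p = 0.0084) in the FAM60A knockdown.

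Complex IV had 2 of 15 members passing in each knockdown, none of them shared. COX6A1, the widely expressed form of a subunit that also has a heart and muscle form, had 13.82, 13.89 and 13.86 in the SDS3 knockdown, against 14.15, 14.13 and 14.11 in its controls. It fell by 0.27 (SE 0.049, n = 3 against 3, limma adjusted p = 0.00253), with no overlap. In the FAM60A knockdown it had 0.079 (limma adjusted p = 0.31). COX7A2L, known for joining complexes III and IV into supercomplexes, fell by 0.20 in the SDS3 knockdown (limma adjusted p = 0.0201). The calls after FAM60A knockdown were COX7A2 (-0.20, limma adjusted p = 0.0141) and COX7B2 (-0.21, limma adjusted p = 0.0321). COX7A2 did not pass without FAM60A knockdown replicate 3 (-0.18). COX7B2, a form known from testis, was dim (5.66 to 5.85 in the knockdown, against 5.92 to 6.07 in its controls) and did not pass without FAM60A control replicate 2 (-0.17) or 3 (-0.22) or knockdown replicate 2 (-0.15). The alternative forms COX6A2, COX6B2 and COX7A1 and the pseudogene COX6A1P1 passed in neither knockdown.

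**Figure D3:**
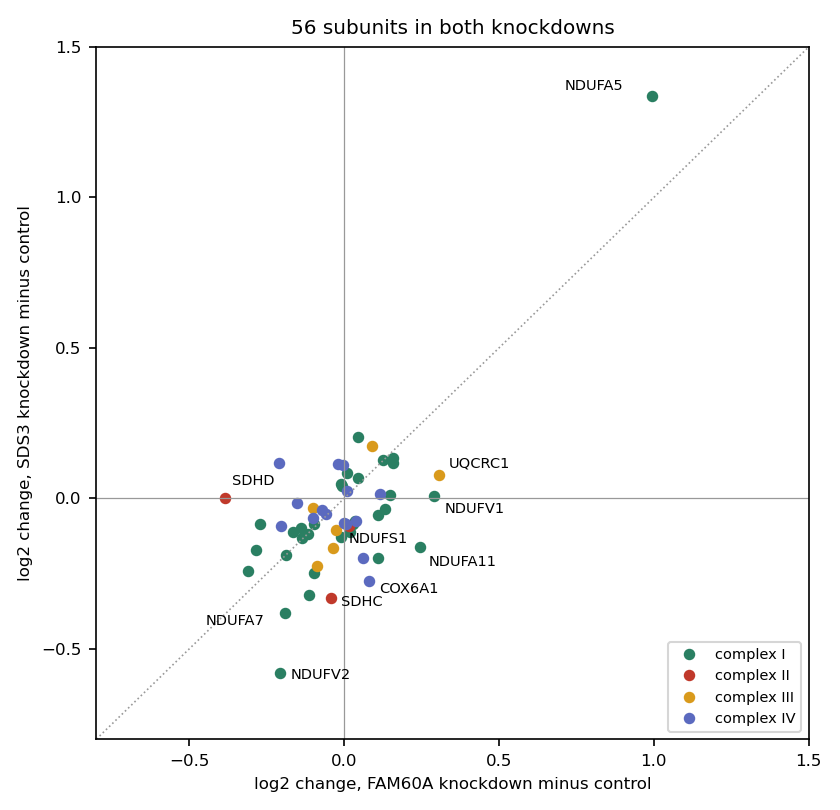
Log2 change of the 56 subunits in the FAM60A knockdown (x axis) and in the SDS3 knockdown (y axis), coloured by complex, with equal changes on the dotted line. NDUFA5 is alone at the upper right, and SDHD, NDUFV1, UQCRC1, NDUFA11 and COX6A1 lie away from the line.

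Both knockdowns called 5 members in the same direction: NDUFA5 higher, and NDUFA9, NDUFC1, NDUFS3 and NDUFV2 lower, all of complex I. They were 41.7% of the FAM60A calls and 33.3% of the SDS3 calls, and 18.1% of all tested genes passed the same way in both knockdowns, against 5 of 56 members. Over all genes 3369 passed the same way, out of 6855 FAM60A calls and 6439 SDS3 calls. No member was called in opposite directions, and 34 of 56 passed in neither. The shares of all genes for these last counts were not computed. The change itself differed between the knockdowns (limma contrast over 12 arrays) for 8 of 56 members (14.3%), where 25.3% of all genes passed. Of the 8 the SDS3 change was higher in 1 and lower in 7, against 9.99% and 15.3% of all genes. NDUFA11 differed by -0.41 (SDS3 change minus FAM60A change, SE 0.083, limma adjusted p = 0.0024), from -0.16 in the SDS3 knockdown and 0.25 in the FAM60A knockdown. SDHD differed by 0.39 (limma adjusted p = 0.016), NDUFV2 by -0.37 (limma adjusted p = 0.00468) and COX6A1 by -0.35 (limma adjusted p = 0.00192). NDUFS1, a core subunit with several iron-sulfur clusters, differed by -0.31 (limma adjusted p = 0.0183), from -0.20 in the SDS3 knockdown and 0.11 in the FAM60A knockdown. NDUFV1 differed by -0.28 (limma adjusted p = 0.0109), UQCRC1 by -0.23 and COX7A2L by -0.26. SDHC differed by -0.29 and did not pass (limma adjusted p = 0.069). Without SDS3 knockdown replicate 1 the NDUFS1 difference was -0.27 and did not pass, and with spike-in scaling those of SDHD (0.16), NDUFS1 (-0.53) and NDUFV1 (-0.51) did not pass.

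The probe set of 27 tested members belonged to the shared-sequence class. Without that class 48 members could be tested. In the FAM60A knockdown 14 passed, 4 higher and 10 lower, against 32.4% of all genes, and in the SDS3 knockdown 15 passed, 3 higher and 12 lower, against 30.5%. By complex the calls were 7 of 26 in complex I, 2 of 2 in complex II, 3 of 6 in complex III and 2 of 14 in complex IV in the FAM60A knockdown. After SDS3 knockdown they were 10 of 26, 0 of 2, 2 of 6 and 3 of 14. NDUFA2 (-0.22, limma adjusted p = 0.0292) and COX5A (0.29, limma adjusted p = 0.00614) then passed in the SDS3 knockdown, where their brightest probe sets had -0.11 and -0.015 and did not pass. NDUFA11 then had -0.013 in the FAM60A knockdown from a dim probe set at 7.48, where its 2 bright probe sets of shared sequence had 0.25 and 0.29. NDUFS1 had a difference of 0.007 between the knockdowns. Over the 29 members with a further tested probe set, 48 further probe sets were tested, with their p adjusted over all probe sets. After FAM60A knockdown 1 of them passed in the direction of a passing brightest one, 0 in the opposite direction, and 10 passed where the brightest did not. In the SDS3 knockdown the counts were 5, 0 and 6.

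**Figure D4:**
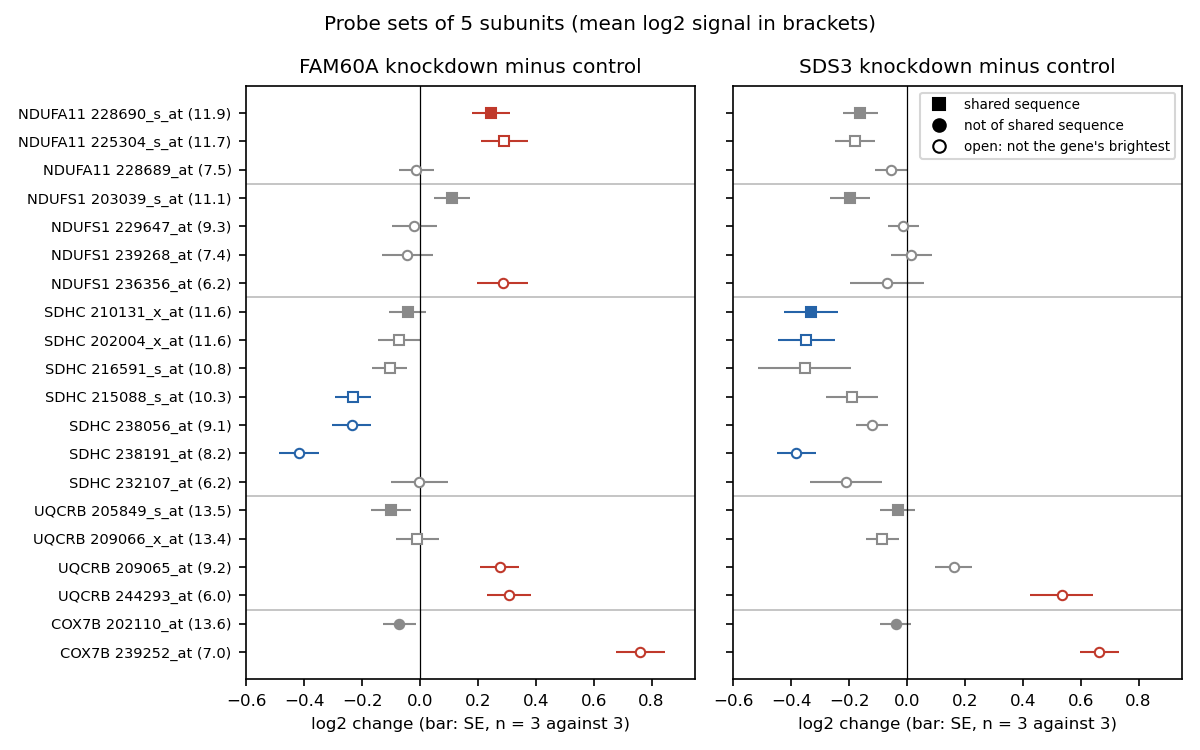
Every tested probe set of 5 subunits, ordered by mean log2 signal (in brackets) within a gene, with its log2 change (x axis) and SE in the FAM60A knockdown (left) and the SDS3 knockdown (right). Squares are of shared sequence, filled symbols are the brightest of the gene, red and blue passed as higher and lower over all probe sets; the dim COX7B probe set stands at 0.76 and 0.66 while the bright one stays near 0.

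Lists of genes around the chain held 99 tested genes, of which 46 passed in the SDS3 knockdown (46.5%) and 40 in the FAM60A knockdown (40.4%). In the SDS3 knockdown 34.6% of all genes and 51.3% of genes at log2 10 or more passed, and in the FAM60A knockdown 36.8% and 54.8% did. Subunits encoded in mitochondrial DNA were not analysed here. Of 17 complex I assembly factors, which build the enzyme and leave it, 12 fell and 1 rose in the SDS3 knockdown (76.5%), and 5 fell and 1 rose in the FAM60A knockdown (35.3%). Falls made up 18.8% of all genes and 30.8% of genes at log2 10 or more in the SDS3 knockdown, and 17.6% and 29.5% in the FAM60A knockdown. The median change of the 17 was -0.23 in the SDS3 knockdown and -0.079 in the FAM60A knockdown. FOXRED1 fell by 0.54 (limma adjusted p = 0.000114), NDUFAF6 by 0.49 (limma adjusted p = 0.000101) and COA1 by 0.39 (limma adjusted p = 0.000492) in the SDS3 knockdown. COA1 had 0.088 without the shared-sequence class and did not pass. In the FAM60A knockdown the assembly factor TIMMDC1 fell by 0.75 (limma adjusted p = 1.88e-06) and NDUFAF6 by 0.34, and NDUFAF2 rose by 0.38. NDUFAF2 rose in the SDS3 knockdown as well, by 0.33.

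Of 34 assembly factors of complexes II to IV, 16 fell and 1 rose in the SDS3 knockdown, and 11 fell and 6 rose in the FAM60A knockdown, 50% in each. In the SDS3 knockdown 34.6% of all genes and 51.3% of genes at log2 10 or more passed, 18.8% and 30.8% as lower. In the FAM60A knockdown 36.8% and 54.8% passed, 17.6% and 29.5% as lower. COA6 (-0.69), COX10 (-0.62) and COX16 (-0.50), all needed for complex IV, had the largest passing changes in the SDS3 knockdown. COX10, a haem A synthesis enzyme, had 0.009 in the FAM60A knockdown, and its difference between the knockdowns was -0.63 (limma adjusted p = 8.51e-05). COX11, a copper carrier for complex IV, fell by 0.85 in the FAM60A knockdown (limma adjusted p = 6.91e-06), SDHAF3 by 0.60 and COX15 by 0.52.

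Of 18 ATP synthase subunits, 3 fell and 1 rose in the SDS3 knockdown (22.2%), and 2 fell in the FAM60A knockdown (11.1%). Of all genes 34.6% and 36.8% passed in these knockdowns. The passing members with the largest changes were ATP5IF1 (-0.31), ATP5MC1 (-0.30) and ATP5ME (0.18) in the SDS3 knockdown, and ATP5PF (-0.27) and ATP5PO (-0.17) in the FAM60A knockdown. ATP5ME had -0.15 with spike-in scaling. Cytochrome c itself, CYCS, fell by 0.37 in the SDS3 knockdown and by 0.22 in the FAM60A knockdown, and CYC1, the haem subunit of complex III, fell by 0.20 in the SDS3 knockdown and had 0.035 in the FAM60A knockdown. CYCS did not pass without FAM60A knockdown replicate 3 (-0.18), and CYC1 did not without SDS3 knockdown replicate 1 (-0.17).

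**Figure D5:**
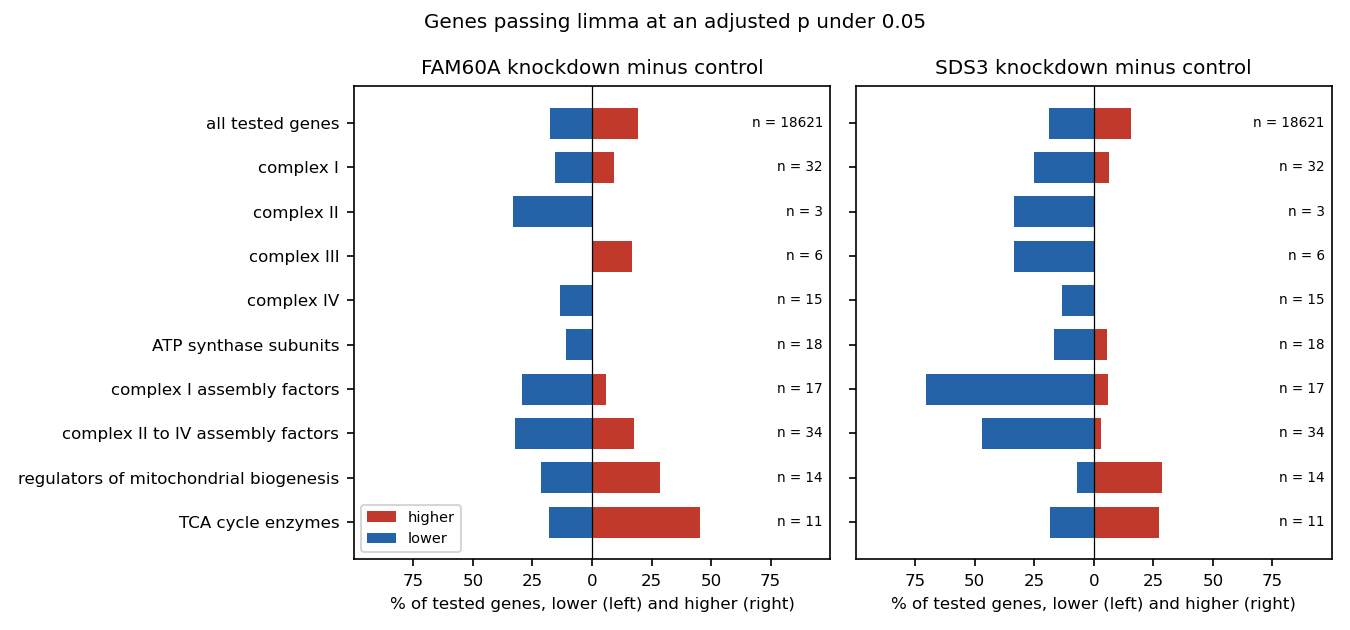
Share of tested genes that passed limma as lower (left of 0) or higher (right of 0), for all genes, the 4 complexes and 5 related lists, in the FAM60A knockdown (left panel) and the SDS3 knockdown (right panel). Complex I assembly factors have 12 of 17 lower in the SDS3 knockdown, where 18.8% of all genes were lower. Falls there were 8 of 32 in complex I, 1 of 3 in complex II, 2 of 6 in complex III and 2 of 15 in complex IV.

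Among 14 regulators of mitochondrial biogenesis, 4 rose and 1 fell in the SDS3 knockdown (35.7%), and 4 rose and 3 fell in the FAM60A knockdown (50%). Of all genes 34.6% passed in the SDS3 knockdown and 36.8% in the FAM60A knockdown. At log2 10 or more 51.3% and 54.8% did. TFAM, which packages mitochondrial DNA, fell by 0.68 in the SDS3 knockdown and 1.02 in the FAM60A knockdown, and TFB1M, a mitochondrial rRNA methyltransferase, rose by 0.38 in the SDS3 knockdown and 0.72 in the FAM60A knockdown. Neither passed in either knockdown without the shared-sequence class, where TFAM had -0.23 in the SDS3 knockdown and -0.24 in the FAM60A knockdown, and TFB1M 0.11 in the SDS3 knockdown and 0.066 in the FAM60A knockdown. PPARGC1B, a co-activator of respiratory genes, rose by 0.66 in the SDS3 knockdown (limma adjusted p = 3.7e-05) and by 0.57 in the FAM60A knockdown (limma adjusted p = 0.000341). Of the genes of the 3 factors searched for above, named after their values were seen, YY1 fell by 0.45 in the FAM60A knockdown (limma adjusted p = 0.00118) and had 0.13 in the SDS3 knockdown, NRF1 rose by 0.20 in the SDS3 knockdown and had 0.15 in the FAM60A knockdown, and GABPA passed in neither. Of 11 tested TCA cycle enzymes, 3 rose and 2 fell in the SDS3 knockdown (45.5%), and 5 rose and 2 fell in the FAM60A knockdown (63.6%), beside the same shares of all genes. SUCLG1, a succinyl-CoA ligase subunit, rose by 0.76 in the SDS3 knockdown and 0.58 in the FAM60A knockdown, and citrate synthase, CS, rose by 0.44 in the FAM60A knockdown. IDH3A rose by 0.38 in the SDS3 knockdown and 0.58 in the FAM60A knockdown and passed in neither without the shared-sequence class (0.19 in the SDS3 knockdown and 0.055 in the FAM60A knockdown). SUCLG2 fell by 0.28 in the SDS3 knockdown.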

How the data were processed

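Gene expression was measured on 12 Affymetrix arrays of A549 cells. The deposited values are intensity per probe set, linear and after RMA, per the submitters' processing notes, which give no version or settings. RMA removes a change shared by most transcripts. Log2 was taken here; the plan had assumed log2 values. Groups came from the sample titles. Of 54675 probe sets, 41097 had 1 gene symbol and were named through the platform annotation, with 41043 matched to RefSeq (GRCh38.p14). Where a gene had several probe sets, the one with the highest mean stood for it. Knockdown and own control arrays were compared in limma 3.58.1 (R 4.3.3, lmFit and eBayes, adjusted p under 0.05 over all 18621 tested genes), and both changes were compared in a fit of all 12 arrays. The code was tested on simulated data. Control probe sets were compared by exact permutation, two-sided. Alternatives covered the filter, the probe set, the scaling, the fit, a replicate block and leaving out each array; scaling to hybridisation controls was chosen after seeing the data.

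Members and lists were chosen with earlier results of these data known. The genes named were, per knockdown, the 8 largest passing rises and falls among members, all members of complex II, the 6 largest passing differences and up to 3 passing genes per related list; others were added after their values were seen. Replicates of a group correlated at 0.998 to 0.999, and no arrays held identical values. Same-numbered arrays did not deviate together (correlations from -0.12 to 0.034), so the numbers were not taken as pairs. The number of arrays limits the precision. Also used were pandas 2.3.3, matplotlib 3.10.9 and the data.table package, version 1.17.8.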

Additional observations from a re-analysis of the deposited data

Results flagged for a closer look

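The changes of 6 subunits differed between the 2 knockdowns by limma's contrast over 12 arrays, all values being the SDS3 change minus the FAM60A change on the log2 scale. NDUFA11 differed by -0.41, with all 3 arrays of the SDS3 knockdown below the mean of their controls and all 3 arrays of the FAM60A knockdown above theirs. SDHD differed by 0.39, NDUFV2 by -0.37, COX6A1 by -0.35, NDUFS1 by -0.31 and NDUFV1 by -0.28. NDUFV2 fell in both knockdowns and differed in size, while SDHD, COX6A1, NDUFS1 and NDUFV1 passed in 1 knockdown alone. Without the shared-sequence class NDUFA11 differed by -0.043 and NDUFS1 by 0.007, and neither passed.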

How the results depend on the processing

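Among the named members, NDUFA5 and NDUFS3 in both knockdowns and SDHD in the FAM60A knockdown kept their direction and passed under all 17 alternatives. NDUFV2, NDUFA7, COX6A1, NDUFB5 and UQCRC2 did so in the SDS3 knockdown. Where a value moved, the cause was not tested. With spike-in scaling 5 members passed in the FAM60A knockdown, 38 in the SDS3 knockdown and 3 by difference, the member medians were -0.11 in the FAM60A knockdown and -0.40 in the SDS3 knockdown, and 17 of 99 related genes passed in the FAM60A knockdown, where the deposited scale gave 40. With hybridisation controls 6 members and 24 related genes passed in the FAM60A knockdown, and the medians were 0.051 in the FAM60A knockdown and -0.16 in the SDS3 knockdown. The trend and robust setting gave 20 members in the FAM60A knockdown and 27 in the SDS3 knockdown, where 38.7% and 37.7% of all genes passed. The mean of all probe sets gave a median of -0.047 in the SDS3 knockdown and 5 differences. Without shared-sequence probe sets 26 related genes of 81 passed in the FAM60A knockdown, where 32.4% of all genes did. Signs turned for NDUFA11 (-0.013, FAM60A), COA1 (0.088, SDS3) and the differences of NDUFS1 (0.0073) and SDHC (0.11) without shared-sequence probe sets; for SDHA (-0.086, FAM60A), NDUFA3 (-0.12, SDS3), ATP5ME (-0.15, SDS3) and SDHD (-0.32, SDS3) with spike-in scaling; for SDHC (0.016, FAM60A) and SDHD (-0.075, SDS3) with hybridisation controls; and for SDHD (-0.0018, SDS3) with arrays centred on their medians. Leaving out 1 array gave 10 to 13 members in the FAM60A knockdown, 8 to 11 in the SDS3 knockdown and 6 to 10 differences, with 9 without SDS3 control replicate 2 or SDS3 knockdown replicate 1 and 8 without SDS3 knockdown replicate 2. These counts, and those of the replicate block below, stand without the share of all genes passing in the same fits. A loss particular to the members cannot be read from them. With 1 array left out, SDHA in the FAM60A knockdown ran from -0.010 to 0.042 and SDHD in the SDS3 knockdown from -0.028 to 0.053. The replicate block gave 10 members in the FAM60A knockdown, 11 in the SDS3 knockdown and 7 differences, and with it COX7B2 and NDUFC1 in the FAM60A knockdown did not pass (limma adjusted p = 0.065 and 0.060). Dim probe sets, such as that of COX7B2, limit what can be read of the tissue-specific forms.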

Other observations

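Further probe sets passed where the brightest did not for COX7B, NDUFA10, NDUFB2, NDUFS1, SDHC, UQCR11 and UQCRB in the FAM60A knockdown. In the SDS3 knockdown this held for COX5A, COX7B, NDUFA2, NDUFB10, NDUFB8 and UQCRB. COX7B and UQCRB, named for both knockdowns, are given here. COX7B, a small subunit of complex IV, had -0.072 in the FAM60A knockdown and -0.040 in the SDS3 knockdown from its bright probe set at 13.6, and neither passed. Its dim probe set, at 6.99 and not of shared sequence, rose by 0.76 in the FAM60A knockdown (SE 0.085, n = 3 against 3, limma adjusted p = 0.000116 over all probe sets) and by 0.66 in the SDS3 knockdown (SE 0.067, limma adjusted p = 0.00019). UQCRB, a small subunit of complex III, had -0.10 in the FAM60A knockdown and -0.032 in the SDS3 knockdown from its brightest probe set, and its dimmest, at 5.97, rose by 0.31 in the FAM60A knockdown and 0.53 in the SDS3 knockdown. COX7B and UQCRB were chosen after their values were seen.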
